A study of Bos taurus with 252 samples.

Results

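The genes described here are 8 genes of sterol and fatty acid synthesis and of its control in the whole blood of feedlot steers, namely SCD, FASN, ACACA, SREBF1, SREBF2, HMGCS1, INSIG1 and SQLE. They were chosen by name, as SCD with genes of the SREBP system around it, because SCD was among the few genes past the threshold on day 56 in the steers given oxytetracycline or tildipirosin. All 8 are among the 33282 genes of the count table, all 8 passed the filter on low counts that left 19056 genes for testing, and each matched a single protein-coding gene of the RefSeq cattle annotation by its symbol. The values that chose SCD, those of day 56 in these groups against the untreated steers, are given below as a description without a test.

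SREBP-1 (gene SREBF1) and SREBP-2 (gene SREBF2) are membrane-bound transcription factors of the endoplasmic reticulum. When the membrane is poor in sterol, the escort protein SCAP carries them to the Golgi, where proteases release the part that enters the nucleus and switches on genes of lipid synthesis. When sterol is plentiful, INSIG proteins hold SCAP back. SREBP-2 acts mainly on the cholesterol pathway, including HMGCS1 (HMG-CoA synthase, an early step of the mevalonate pathway), SQLE (squalene epoxidase, the first oxygen-dependent step of sterol synthesis) and INSIG1 itself. SREBP-1 acts mainly on fatty acid synthesis, including ACACA (acetyl-CoA carboxylase, which makes malonyl-CoA), FASN (fatty acid synthase) and SCD (stearoyl-CoA desaturase, which turns saturated into monounsaturated fatty acids). In blood, the pathway is known from dividing lymphocytes, which need new membrane, and from monocytes and macrophages, which handle much lipid.

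The blood came from 42 crossbred steers, 6 in each of 7 groups, and every steer was sampled on day 0, shortly after it had reached a feedlot and before any dose, and again on days 3, 7 and 14, day 21 and day 56, which gave 252 mRNA libraries. The negative control steers (NC) received no antimicrobial, and the other groups received a single dose of an antimicrobial, the cephalosporin ceftiofur (CEFT), the fluoroquinolone enrofloxacin (ENRO), florfenicol (FLOR), the tetracycline oxytetracycline (OXYT), or the macrolides tildipirosin (TILD) and tulathromycin (TULA), after the day 0 sample was drawn. Every steer, NC included, had been given tildipirosin, a trenbolone acetate and estradiol implant, vaccines and dewormers at the start of the backgrounding period before arrival, and ate the same diet throughout. Each group had a single pen, which in the treated groups also held untreated steers that were not sequenced, and after day 0 the groups were sampled in a constant order with NC first and OXYT last, so pen, order and treatment cannot be told apart.

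Library totals ran from 26.1 to 74.1 M counts (M stands for 1000000) around a median of 43.6 M, and the share of hemoglobin transcripts from 0.00393% to 25.5%. The lowest count of any of the 8 genes in any library was 254, for HMGCS1, so counting error was small beside the differences between steers. Lane 1 carried NC and ENRO, lane 2 carried TULA and lane 3 carried CEFT and OXYT, each group whole. The FLOR steers were split over lanes 1 (2 steers) and 2 (4 steers) and the TILD steers over lanes 2 (4 steers) and 3 (2 steers). Thus no CEFT, OXYT, TULA or TILD steer shared a lane with NC, and for these treatments lane and treatment cannot be told apart. Erythroid markers varied most among the blood cell types, with summed levels of 9 genes from 47 to 333000 CPM (counts per 1000000 counts of a library). Markers of fat tissue were near the floor, at 1.29 to 10 CPM for 7 genes together, and the defining adipocyte genes ADIPOQ, LEP and FABP4 were at 0 in most libraries. In whole blood, fewer cells of a type and less RNA per cell cannot be told apart.

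Over all groups and days the level of SCD lay between 12.8 and 61.3 CPM, scaled by the TMM factors of the libraries. The lowest group mean was 21.6 ± 2.36 CPM (SD, n = 6) in CEFT on day 14 and the highest 49.2 ± 6.33 CPM in NC on day 3. SREBF2 ran from 275 ± 51.7 CPM in ENRO on day 0 to 455.5 ± 19.4 CPM in ENRO on day 56, and FASN from 89.4 ± 14.1 to 141.5 ± 18.3 CPM in the same group and days. INSIG1 was lowest in TILD on day 21 (46.7 ± 9.63 CPM) and highest in NC on day 3 (78.9 ± 11.3 CPM), and SQLE was lowest in TILD on day 0 (46.7 ± 7.80 CPM) and highest in NC on day 56 (76.8 ± 12.2 CPM). ACACA kept the narrowest band of group means in proportion to its level, from 24.3 ± 5.003 CPM in OXYT on day 7 to 34.8 ± 4.49 CPM in ENRO on day 56. SREBF1 group means ran from 40.8 ± 10.02 CPM in NC on day 0 to 67.8 ± 18.3 CPM in TULA on day 21. HMGCS1 ran from 19.2 ± 6.55 CPM in TILD on day 14 to 46.5 ± 16.6 CPM in NC on day 3.

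Differences between steers that lasted over all 6 days made up 63.5% of the variance of log2 CPM for ACACA, 58.1% for INSIG1, 54.7% for SCD and 52.7% for SQLE, but 19.3% for SREBF1 and 26.8% for HMGCS1. The steer share includes differences between the 7 groups, which were 27.6% of the variance for SCD and 20.1% for SQLE. The day of sampling made up 31.7% of the variance for SREBF2, 23.6% for FASN and 20.1% for SQLE. What neither steer nor day held was widest for HMGCS1, with a residual SD of 0.54 on the log2 scale, against 0.17 for ACACA, SREBF2, INSIG1 and SQLE and 0.25 for SCD. Of the tested genes within 0.5 log2 units of the level of HMGCS1, 91.8% had a smaller residual SD.

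**Figure D1:**
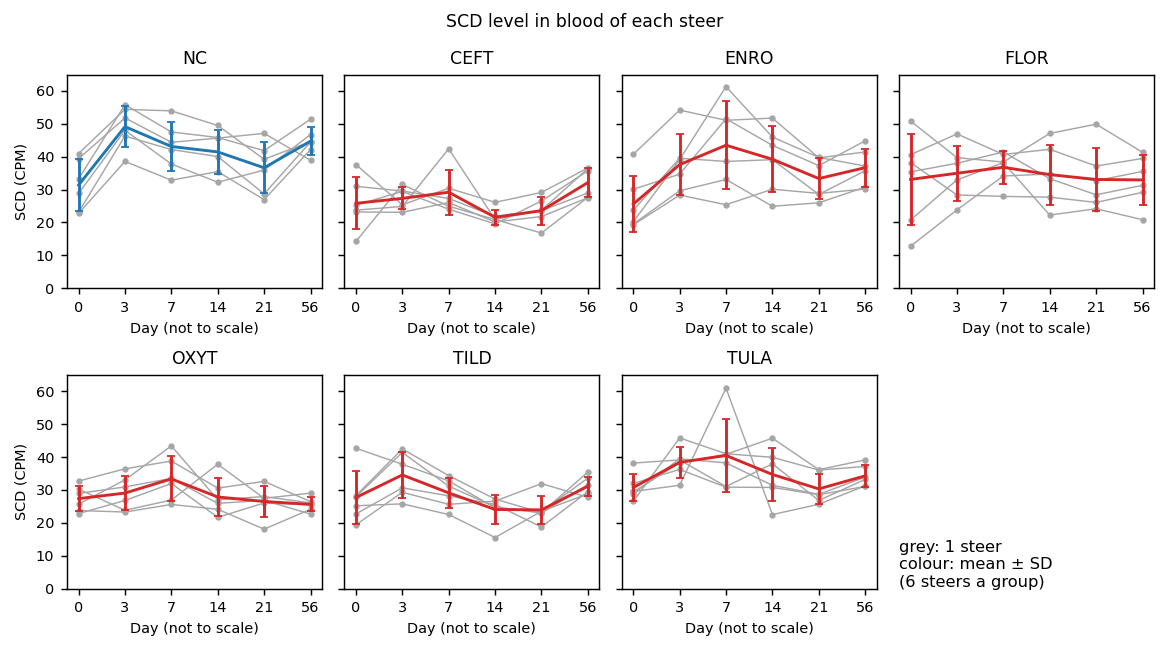
Level of SCD (CPM, vertical axis) on each day of sampling (horizontal axis, not to scale) in the 6 steers of each group, with 1 grey line a steer and the group mean ± SD in colour. NC rose from a mean of 31.4 CPM on day 0 to 49.2 CPM on day 3, while CEFT went from 25.8 to 27.3 CPM and OXYT from 27.3 to 29.04 CPM.

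Which of these genes changed over the weeks at the feedlot, whatever the treatment, was asked by comparing each day with day 0 within the 42 steers. Most rose within 3 days. Over all steers SCD had a median of 28.5 CPM on day 0 (12.8 to 50.8 CPM) and 35.5 CPM on day 3 (23.1 to 55.8 CPM). Its median was 34.2 CPM (22.5 to 61.3 CPM) on day 7, then 30.3 CPM on day 14 (15.5 to 51.8 CPM) and 28.2 CPM on day 21 (16.8 to 49.9 CPM), and 33.4 CPM at the last sampling (20.9 to 51.4 CPM). The ranges overlapped on all days, but within steers SCD was above its own day 0 level in 34 of 42 steers on day 3, in 19 of 42 on day 21 and in 29 of 42 on day 56. On the log2 scale SCD rose by 0.31 ± 0.05 (SE) on day 3 and by 0.34 ± 0.05 on day 7. The rise was 0.125 ± 0.055 on day 14 (edgeR quasi-likelihood FDR between 4.03e-08 and 0.0386 for these 3 days), and SCD was at 0.03 ± 0.05 on day 21 (FDR 0.624). On day 56 it stood at 0.24 ± 0.05 over the 42 steers, a description, since the NC, OXYT and TILD values of that day chose the gene. In the CEFT, ENRO, FLOR and TULA steers alone, whose values did not, SCD rose by 0.26 on day 56 (FDR 0.00244). The rise on day 14 was not called without the NC steers (0.08, FDR 0.268), the ENRO steers (0.05, FDR 0.514) or the TULA steers (0.12, FDR 0.0744). From day 7 to day 14 SCD fell by 0.21 (FDR 0.000492).

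At an FDR of 0.05, 7 of the 8 genes stood above day 0 on each of days 3, 7 and 14, and 4 of them on day 21. On day 56 the 7 genes other than SCD did, and in the CEFT, ENRO, FLOR and TULA steers alone 7 of the 8 did, all but SREBF1 (0.20, FDR 0.135). Of all genes tested, 22.1% were higher and 19.2% lower on day 3, and 25.3% and 20.6% on day 7. The shares were 34.2% and 30.9% on day 14, 34.1% and 32.5% on day 21 and 33.9% and 31.8% on day 56, so calls were common throughout. SQLE rose from a median of 50.7 CPM on day 0 (34.98 to 68.3 CPM) to 64.95 CPM on day 7 (46.1 to 102 CPM). It was higher in 41 of 42 steers on day 7, at a log2 fold change of 0.41 ± 0.04, and still by 0.34 ± 0.04 on day 56 (FDR 1.26e-20 and 1.44e-16). INSIG1, the sterol-dependent brake on SREBP release, had a course near that of SCD, with log2 fold changes of 0.27 ± 0.04 on day 3 and 0.21 ± 0.04 on day 56 (FDR 3.20e-10 and 6.50e-08) and 0.06 ± 0.04 on day 21 (FDR 0.116).

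SREBF2 and FASN stood highest above day 0 on the last day. SREBF2 had a median of 299.6 CPM on day 0 (187 to 430 CPM), 389 CPM on day 21 (269 to 494 CPM) and 399.5 CPM on day 56 (285 to 499 CPM), and its log2 fold change was 0.385 ± 0.04 on day 21 and 0.45 ± 0.04 on day 56 (FDR 8.10e-20 and 1.45e-24). SREBF2 was higher on day 21 in 42 of 42 steers. FASN rose by 0.15 ± 0.04 on day 3 and by 0.41 ± 0.04 on day 56 (FDR 0.00179 and 6.38e-18), and was higher on day 56 in 40 of 42 steers. ACACA, the enzyme before FASN, changed least of the genes called on every day, from 0.08 ± 0.04 on days 7 and 14 (FDR 0.0496 and 0.0424) to 0.20 ± 0.04 on day 56 (FDR 2.42e-07). Without the NC steers ACACA was not called on days 3, 7 or 14 (0.07, 0.06 and 0.04, FDR 0.116, 0.172 and 0.428), nor without the ENRO steers (0.08, 0.04 and 0.05, FDR 0.0834, 0.374 and 0.288). Its calls on days 7 and 14 were also lost without the TULA steers (FDR 0.108 and 0.065), that on day 7 without the FLOR steers (FDR 0.053), and those on days 3 and 7 without the CEFT steers (FDR 0.0671 and 0.0918). The call of FASN on day 7 was lost without the ENRO steers (0.09, FDR 0.0651). SREBF1 was higher by 0.20 ± 0.08 on day 3 and 0.26 ± 0.08 on day 56 (FDR 0.0404 and 0.00423), with values between -0.03 and 0.14 on the days between. The call on day 3 was lost without the NC, ENRO, FLOR or TILD steers (FDR 0.155, 0.0887, 0.0714 and 0.0904), and that on day 56 without the NC steers (FDR 0.0537). HMGCS1 was higher by 0.41 ± 0.11 on day 7 and by 0.25 ± 0.11 on both day 14 and day 56 (FDR 0.00114, 0.0409 and 0.0457). Leaving out any of NC, CEFT, ENRO, FLOR or TULA lost its calls on day 14 (0.19 to 0.24, FDR 0.074 to 0.17) and day 56 (0.18 to 0.26, FDR 0.0532 to 0.19). The rise was not seen in TILD, where HMGCS1 changed by -0.15 ± 0.29 (SD, n = 6) on day 7, -0.79 ± 0.51 on day 14 and -0.11 ± 0.445 on day 56. On day 14, 0 of 6 TILD steers were higher. The other groups had positive mean changes on these days.

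**Figure D2:**
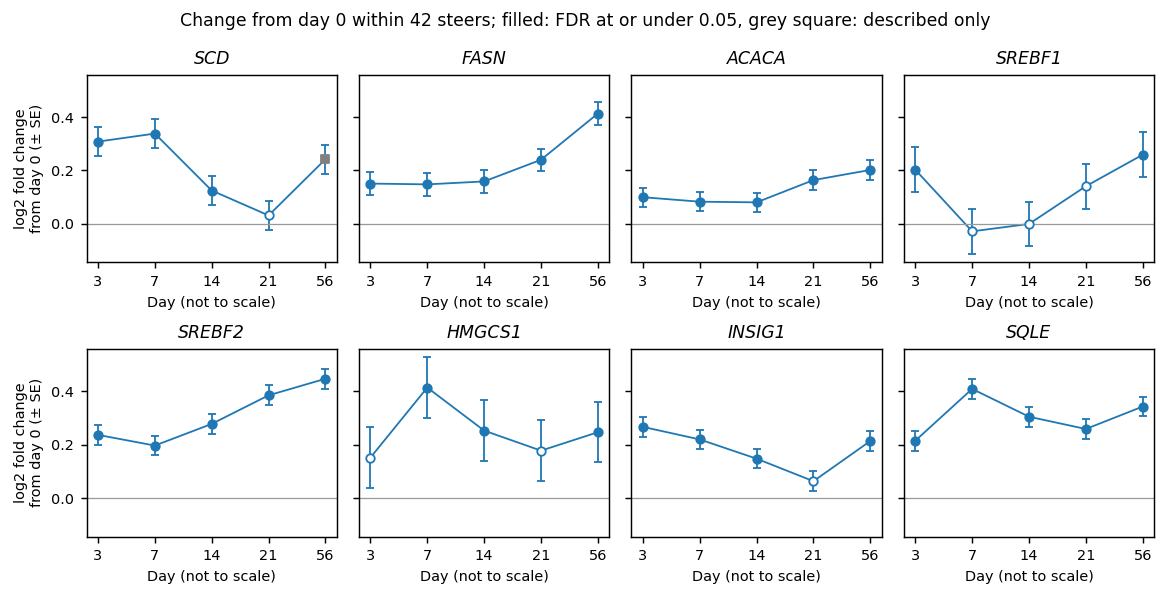
Log2 fold change from day 0 (vertical axis, ± SE) within 42 steers for each of the 8 genes on the 5 later days (horizontal axis, not to scale). Filled points passed an FDR of 0.05, and the grey square is SCD on day 56, which is described only. SCD and INSIG1 returned towards 0 on day 21 (0.03 and 0.06) and SREBF2 and FASN were highest on day 56 (0.45 and 0.41).

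The wider cholesterol pathway rose as well. Of 20 other genes of the mevalonate and sterol steps, 10 were higher and 2 lower on day 3 than on day 0, 13 higher and 1 lower on day 7, and 14 higher and 4 lower by day 56. The median log2 fold change of the list was 0.15, 0.19 and 0.29 on these days, beside 0.022, 0.032 and 0.017 over all genes tested. The shares over all genes were 22.1% higher and 19.2% lower on day 3, 25.3% and 20.6% on day 7, and 33.9% and 31.8% on day 56. MVK (mevalonate kinase) rose by 0.38 ± 0.04, 0.41 ± 0.04 and 0.61 ± 0.04 (FDR 4.42e-14, 9.59e-17 and 5.51e-31). On day 7 MSMO1 was up by 0.40 ± 0.05, CYP51A1 by 0.33 ± 0.04 and IDI1 by 0.32 ± 0.03. LBR, a sterol reductase that is also a protein of the nuclear envelope, went the other way, by -0.44 ± 0.04 on day 56 (FDR 2.72e-20).

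Among 10 genes of SREBP control, SCAP rose by 0.22 ± 0.03 on day 3 and by 0.56 ± 0.03 on day 56 (FDR 4.60e-10 and 2.27e-42), while INSIG2 fell by 0.48 ± 0.06 and the Golgi protease gene MBTPS2 by 0.32 ± 0.04 on day 56. Of that list 2 were higher and 4 lower on day 56, with a median of -0.031. Of 25 other genes of fatty acid synthesis and desaturation, 8 were higher and 5 lower on day 3 and 8 higher and 8 lower on day 56, with medians of 0.12 and 0.0045. The shares over all genes tested were 22.1% higher and 19.2% lower on day 3, and 33.9% and 31.8% on day 56. The fatty acid list lay near these shares on day 56. The desaturase gene FADS2 rose by 0.52 ± 0.09 on day 3 and 0.53 ± 0.09 on day 56, and TECR by 0.51 ± 0.04 on day 56, whereas the acyl-CoA synthetase gene ACSL6 fell by 0.89 ± 0.05 and the elongase gene ELOVL5 by 0.45 ± 0.04 on day 56.

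The sterol exporter ABCA1 fell by 0.37 ± 0.09 on day 3 and 0.83 ± 0.09 on day 56, and the HDL receptor SCARB1 by 0.77 ± 0.06 on day 7. In the same list ABCG1 rose by 0.13 ± 0.05 on day 3 and 0.265 ± 0.05 on day 56, and NR1H2 by 0.10 ± 0.04 and 0.265 ± 0.04. Of 13 genes of sterol uptake, transport and efflux, 5 were higher and 3 lower on day 3, and 4 higher and 5 lower on day 56, beside shares of all genes of 22.1% and 19.2% on day 3 and 33.9% and 31.8% on day 56. Of 20 genes of fatty acid oxidation, 5 were higher and 5 lower on day 3, and 8 higher and 9 lower on day 56, with medians of 0.028 and 0.0098 beside 0.022 and 0.017 over all genes. In that list CPT1A, which admits fatty acids into the mitochondrion, fell by 0.82 ± 0.07 on day 3 and 1.3 ± 0.08 on day 56 (FDR 3.04e-19 and 8.65e-40), and PDK4, which spares glucose when fat is burned, fell by 1.14 ± 0.12 on day 3 and fell by 2.12 ± 0.13 on day 56. Of 17 genes of lipid storage, 6 were higher and 2 lower on day 3, and 11 higher and 4 lower on day 56, with medians of 0.19 and 0.39, led on day 56 by FABP4 (1.68 ± 0.57, at 0 in most libraries), CD36 (-1.45 ± 0.27) and HILPDA (-1.43 ± 0.26).

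Cell type markers moved over the same days. On day 3, 6 of 8 T cell markers were higher than on day 0 and 6 of 7 neutrophil markers lower, and on day 56, 8 of 8 T cell markers were higher, 6 of 7 neutrophil markers lower and 6 of 7 monocyte markers lower. The summed T cell markers lay between 1120 and 2350 CPM on day 0 and between 1610 and 3220 CPM on day 56, and the neutrophil markers between 1340 and 5190 CPM and between 973 and 4050 CPM. Erythroid markers were higher for 7 of 9 genes on day 3. Of all genes, 22.1% were higher and 19.2% lower on day 3, and 33.9% and 31.8% on day 56. Their part in the rise of the 8 genes was not tested.

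Whether a treatment set these genes apart from NC was asked on each day, in 6 treated against 6 NC steers. All comparisons of a day use the same 6 NC steers, so the values of different treatments on a day are not independent of one another. SCD was chosen from the NC, OXYT and TILD steers on day 56, and lasting differences between steers made up 54.7% of its variance. Comparisons of SCD with these NC steers, on day 56 and on other days, are therefore not independent of that choice, above all in OXYT and TILD. On day 0, before dosing, none of the 48 comparisons of the 8 genes passed an FDR of 0.1 by edgeR's quasi-likelihood test, with 1 at an unadjusted p under 0.05, 0 by DESeq2, and SCD between -0.30 and 0.08 on the log2 scale. SQLE (-0.213 to -0.0949) and HMGCS1 (-0.436 to -0.0493) were already below NC in all 6 treated groups on day 0. SREBF1 was above NC in all 6 (0.186 to 0.546). From day 3 to day 56, leaving aside day 56 of OXYT and TILD, 12 comparisons of a gene passed, and all 12 were lower in the treated steers, namely 5 for SCD, 4 for SQLE and 1 each for INSIG1, ACACA and HMGCS1. They fell on day 3 in CEFT, OXYT and TILD and on day 14 in CEFT and TILD. None of the 120 comparisons in ENRO, FLOR or TULA passed by edgeR (22 at an unadjusted p under 0.05, and 5 by DESeq2), and none of the 84 comparisons of FASN, SREBF1 or SREBF2 did (6 at an unadjusted p under 0.05, and 1 by DESeq2). These calls did not outlast an adjustment for the sequencing lane, with 0 of the 12 kept after ComBat_seq by lane and 0 when all 42 steers of a day were fitted together with a lane term. ComBat_seq was given lane but not treatment, so it also takes out a treatment difference that coincides with lane. No CEFT, OXYT or TILD steer shared a lane with NC, so the loss of these calls does not tell lane from treatment.

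On day 3, SCD lay between 38.6 and 55.8 CPM in NC (median 49.9 CPM), between 23.1 and 31.6 CPM in CEFT (median 27.4 CPM), between 23.3 and 36.4 CPM in OXYT (median 28.9 CPM) and between 25.8 and 42.5 CPM in TILD (median 34.2 CPM). All 6 CEFT and all 6 OXYT steers were below the lowest NC steer, and in TILD 4 of 6 were. The log2 fold change from NC was -0.86 ± 0.11 in CEFT (FDR 0.0224), -0.77 ± 0.13 in OXYT (FDR 0.0339) and -0.51 ± 0.14 in TILD (FDR 0.0925). In ENRO, FLOR and TULA the steers ran from 28.3 to 54.2 CPM, from 23.8 to 46.9 CPM and from 31.4 to 45.8 CPM, and overlapped NC. Leaving out any 1 steer kept the call of SCD in CEFT and OXYT in 12 of 12 refits, but in TILD in 2 of 12, those without TILD steers 3 or 8. With lane as a term the log2 fold changes of SCD were -0.88 in CEFT, -0.79 in OXYT and -0.52 in TILD (FDR 0.504, 0.775 and 0.713), and after ComBat_seq by lane they were -0.35, -0.23 and -0.13 (FDR 0.341, 0.58 and 0.858). The lane term rests on FLOR and TILD, the only groups split over lanes. On that day 4.86% of all genes tested were called lower in CEFT, 1.52% in OXYT and 1.84% in TILD, and 3.58%, 1.83% and 2.5% of them had no overlap between the groups. The number of genes called either way rested on single steers, at 2071 in CEFT (132 without NC steer 12, 3836 without CEFT steer 8), 572 in OXYT (73 without NC steer 7, 1203 without NC steer 5) and 599 in TILD (14 without NC steer 7).

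SQLE lay between 58.2 and 84.3 CPM in NC on day 3, against 41.5 to 59.7 CPM in CEFT, 45.4 to 64.7 CPM in OXYT and 39.9 to 70.9 CPM in TILD. Each of these ranges overlapped NC at its upper end. The log2 fold changes of SQLE were -0.49 ± 0.12, -0.44 ± 0.11 and -0.51 ± 0.14 (FDR 0.0566, 0.0862 and 0.091), and the calls were kept in 9, 2 and 1 of 12 refits without 1 steer. In CEFT the call was lost without CEFT steer 5 and without NC steers 7 or 13. In OXYT it was kept without NC steer 12 or OXYT steer 2, and in TILD without TILD steer 3. INSIG1 lay between 67.2 and 96.5 CPM in NC and between 45.04 and 68.2 CPM in CEFT, where 5 of 6 steers were below the lowest NC steer (log2 fold change -0.52 ± 0.13, FDR 0.0596, kept in 7 of 12 refits and lost without CEFT steers 5 or 6 or NC steers 7, 12 or 15). ACACA lay between 28.9 and 36.8 CPM in NC and between 21.03 and 28.2 CPM in OXYT, without overlap (log2 fold change -0.36 ± 0.10, FDR 0.0906, kept in 1 of 12 refits, that without NC steer 5).

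On day 14, SCD lay between 32.25 and 49.5 CPM in NC (median 42.9 CPM), between 19.6 and 26.1 CPM in CEFT (median 20.9 CPM) and between 15.5 and 27.2 CPM in TILD (median 25.2 CPM). No CEFT or TILD steer reached the lowest NC steer. The log2 fold change was -0.96 ± 0.12 in CEFT (FDR 0.0102) and -0.79 ± 0.15 in TILD (FDR 0.0646). Leaving out any 1 steer kept the call of SCD in CEFT in 12 of 12 refits and in TILD in 4 of 12, those without NC steer 5 or TILD steers 2, 3 or 5. With lane as a term the values were -0.89 and -0.61 (FDR 0.782 and 0.684), and after ComBat_seq by lane -0.58 and -0.48 (FDR 0.438 and 0.662). On that day 0.0577% of all genes were called lower in CEFT and 0.131% in TILD, and 1.1% and 1.19% had no overlap. Either way, 59 genes were called in CEFT (14 without NC steer 15) and 88 in TILD (28 without TILD steer 7, 1070 without NC steer 5). SQLE in CEFT lay within a narrow band of 49.95 to 54.9 CPM, all below the 55.8 to 86.0 CPM of NC (log2 fold change -0.53 ± 0.10, FDR 0.0681), a call kept in 2 of 12 refits, those without NC steers 5 or 12. HMGCS1 in TILD lay between 11.99 and 28.2 CPM, all below the 32.9 to 63.2 CPM of NC (log2 fold change -1.21 ± 0.235, FDR 0.0761), a call kept in 4 of 12, those without NC steers 5 or 15 or TILD steers 2 or 8. In OXYT, SCD lay between 21.7 and 37.8 CPM on day 14 and overlapped NC.

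On days 7 and 21 none of the 96 comparisons of a gene passed by edgeR, where 23 had an unadjusted p under 0.05 and DESeq2 called 10. SCD group means on day 7 were 43.5 ± 13.4 CPM in ENRO, 43.1 ± 7.40 CPM in NC, 40.5 ± 11.02 CPM in TULA, 36.8 ± 5.03 CPM in FLOR, 33.4 ± 6.84 CPM in OXYT, 29.2 ± 6.84 CPM in CEFT and 29.1 ± 4.50 CPM in TILD. On day 21 they were 36.6 ± 7.76 CPM in NC, 33.4 ± 6.25 CPM in ENRO, 33.1 ± 9.48 CPM in FLOR, 30.3 ± 4.63 CPM in TULA, 26.5 ± 4.73 CPM in OXYT, 23.9 ± 4.31 CPM in TILD and 23.6 ± 4.22 CPM in CEFT. Neighbours in these orders lay within 1 SD of one another.

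The values of day 56 that chose SCD were as follows. NC steers lay between 38.9 and 51.4 CPM (median 44.5 CPM), OXYT steers between 22.7 and 29.02 CPM (median 25.7 CPM) and TILD steers between 27.8 and 35.4 CPM (median 30.6 CPM). Neither treated group overlapped NC. The mean of OXYT was 25.6 ± 2.17 CPM on day 56 and 27.3 ± 3.90 CPM on day 0, and that of NC 44.7 ± 4.21 and 31.4 ± 7.86 CPM. The log2 fold change from NC was -0.81 ± 0.09 in OXYT and -0.52 ± 0.10 in TILD. Of all genes tested, 0.0157% were called lower in OXYT and 0.021% in TILD on that day, and 0.908% and 0.63% had no overlap with NC, shares that stand as background only. For the other genes the log2 fold changes from NC in OXYT and TILD on day 56 were -0.51 and -0.41 for SQLE, -0.30 and -0.33 for INSIG1, -0.41 and -0.45 for HMGCS1, -0.35 and -0.09 for ACACA, -0.41 and -0.08 for SREBF1, -0.17 and -0.05 for SREBF2 and -0.15 and -0.09 for FASN.

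The other treatments on day 56 shared those NC steers, whose values helped choose SCD. Their tests of SCD on that day are therefore not independent of the choice. CEFT steers lay between 27.5 and 36.6 CPM for SCD, also below NC without overlap, at a log2 fold change of -0.47 ± 0.11 that did not pass the threshold by edgeR's quasi-likelihood test (FDR 0.889). Of the 8 genes in CEFT on day 56, SCD and SQLE had an unadjusted p under 0.05, and DESeq2 called SCD. SQLE in CEFT lay between 51.9 and 65.4 CPM, below the 66.2 to 96.6 CPM of NC. Of all genes, 0.199% had no overlap in that comparison.

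**Figure D3:**
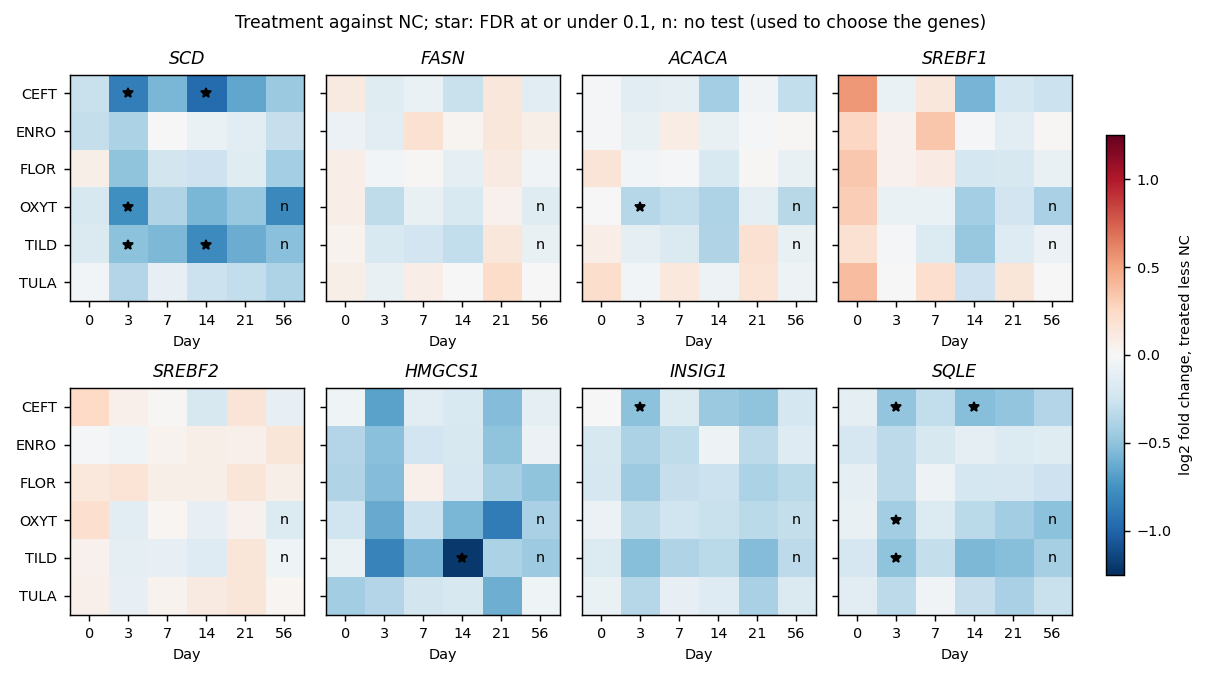
Log2 fold change of treated over NC steers (colour) for each of the 8 genes, with treatments in rows and days in columns. Stars mark the 12 values past an FDR of 0.1, n marks day 56 of OXYT and TILD, which chose SCD and was not tested, and SCD, SQLE, INSIG1 and HMGCS1 are mostly blue, below NC.

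Other genes of the cholesterol pathway were lower in the same comparisons. Of the 20 other mevalonate and sterol genes, 4 were called lower in CEFT on day 3, 2 in OXYT and 4 in TILD, with medians of -0.21, -0.21 and -0.25 beside -0.0018, -0.018 and 0.0018 over all genes. The shares of all genes called lower there were 4.86%, 1.52% and 1.84%. CYP51A1 (lanosterol demethylase) was at 68.9 ± 8.20 CPM in NC, 42.6 ± 6.93 CPM in CEFT, 49.9 ± 8.65 CPM in OXYT and 47.6 ± 6.92 CPM in TILD (log2 fold changes -0.71, -0.48 and -0.53, FDR 0.041, 0.0824 and 0.0529). SC5D and MSMO1, which act late in the pathway, were lower on day 3 in CEFT (-0.75 ± 0.18 and -0.69 ± 0.21) and in TILD (-0.47 ± 0.11 and -0.56 ± 0.15). LSS was lower in OXYT (-0.92 ± 0.23), and LBR in TILD and FLOR (-0.31 ± 0.07 and -0.25 ± 0.06).

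Of the 25 other genes of fatty acid synthesis, 1 passed in each of these comparisons on day 3. Over all genes, 4.86% were called lower in CEFT and 1.84% in TILD, and 1.49% higher in OXYT. A single call among 25 genes does not set the list apart from these shares. ACSL3 was lower in CEFT (-0.55 ± 0.10, FDR 0.041) and TILD (-0.47 ± 0.11, FDR 0.0699), and HACD2 was higher in OXYT (0.38 ± 0.09). HSD17B12, of the elongation cycle, was lower in TILD on day 14 (-0.77 ± 0.15) and day 21 (-0.82 ± 0.17). In SREBP control FBXW7, which marks nuclear SREBP for destruction, was lower in CEFT and ENRO on day 3 (-0.33 ± 0.08 and -0.29 ± 0.07).

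Some genes of the lists of sterol transport, fatty acid oxidation and lipid storage were called higher on day 3, when 6% of all genes were called higher in CEFT, 1.49% in OXYT, 1.3% in TILD and 1.66% in ENRO. In OXYT, SCARB1 (0.78 ± 0.17), SOAT1 (0.62 ± 0.09), which esterifies cholesterol, and the sterol sensor NR1H2 (0.33 ± 0.08) passed, of 13 genes of uptake, transport and efflux. SCARB1 was also higher in TILD (0.61 ± 0.14), NR1H2 in CEFT and ENRO (0.45 ± 0.10 and 0.28 ± 0.06) and SOAT1 in ENRO (0.43 ± 0.09). APOE was called higher in CEFT, at 0.865 ± 1.08 against 0.0959 ± 0.0886 CPM. Of 20 genes of fatty acid oxidation, 4 were higher in OXYT, PDK4 (1.41 ± 0.24, FDR 0.0339), CPT1A (0.81 ± 0.21), PPARD (0.62 ± 0.12) and ACADS (0.47 ± 0.12), and 3 were higher and 1 lower in CEFT, with PPARD at 0.61 ± 0.14 and PPARA at -1.02 ± 0.24. The lipid droplet gene PLIN2 was higher in CEFT and OXYT (0.75 ± 0.24 and 0.74 ± 0.18). Over all the pathway lists, the 14 calls on day 3 in CEFT, 12 in OXYT and 6 in TILD were all lost after ComBat_seq by lane and with lane as a term (0 kept), while the 4 in ENRO, which shared the lane of NC, were kept under both. The 1 call in FLOR, of which 2 steers shared the lane of NC, was also lost under both. With ENRO and NC on the same lane, a lane adjustment bears little on their difference. In CEFT, OXYT and TILD it cannot tell lane from treatment. In the change from day 0, 5 of the 14 in CEFT were called and 0 in FLOR, OXYT, TILD and ENRO. On other days, listed genes passed in that comparison in TILD and ENRO as well as in CEFT. In TILD on day 21 they included SC5D (-0.825 ± 0.19), INSIG2 (-0.758 ± 0.20) and HSD17B12 (-0.694 ± 0.17). In ENRO on day 7 they included MVD (-1.74 ± 0.32), lower, and GPAM (0.605 ± 0.14), higher.

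Cell type markers were counted in the same comparisons. In CEFT on day 3, 0 of 29 markers of T cells, B cells, neutrophils and monocytes passed by edgeR (2 at an unadjusted p under 0.05, and 2 by DESeq2), and the summed neutrophil markers lay between 1380 and 2100 CPM against 1400 and 2140 CPM in NC. In OXYT on day 3, 1 of 8 T cell markers was lower and 1 of 7 neutrophil markers higher, with summed T cell markers between 1340 and 1820 CPM against 1530 and 2450 CPM in NC. In TILD on day 3, 1 of 7 neutrophil markers was higher, with sums between 2060 and 3150 CPM. Over all genes on day 3, 6% were called higher and 4.86% lower in CEFT, 1.49% and 1.52% in OXYT, and 1.3% and 1.84% in TILD. No eosinophil and basophil, NK, platelet or erythroid marker passed in these groups on that day. Medians in CEFT, OXYT and TILD were -0.6, -0.16 and -0.62 for eosinophils and basophils, and -0.47, -1.6 and 1.1 for erythroid markers. On day 14, 0 of 58 comparisons of T cell, B cell, neutrophil and monocyte markers in CEFT and TILD passed (5 at an unadjusted p under 0.05, and 2 by DESeq2). Over all genes, 0.0577% and 0.131% were called lower in CEFT and TILD on that day. The part of the cell types in the lower values was not tested. Of the adipocyte markers, 2 of 6 were called higher in CEFT on day 3, at sums between 3.61 and 10 CPM.

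Because NC and the treated steers could differ before dosing, the change from day 0 was compared with the change in NC within steers. In NC, SCD rose from day 0 to day 3 in all 6 steers, by 0.68 on average on the log2 scale, INSIG1 by 0.52 and SQLE by 0.43. Over 28 changes tested for each gene, 4 passed an FDR of 0.1, all smaller in the treated steers and all in CEFT, while in the other treatments 0 of 184 passed by edgeR and 35 had an unadjusted p under 0.05 (DESeq2 was not run on changes). After ComBat_seq by lane 3 of the 4 remained, and the FDR of SREBF2 was 0.102. All days of a steer were on the same lane, so the steer block already holds lane and this adjustment could alter the changes little. On day 3, INSIG1 changed by 0.01 ± 0.33 (SD, n = 6) in CEFT and by 0.52 ± 0.13 in NC, with 3 of 6 and 6 of 6 steers up, a difference of -0.51 ± 0.13 (SE, FDR 0.0421). On day 14, SCD changed by -0.20 ± 0.40 in CEFT and 0.42 ± 0.25 in NC (difference -0.65 ± 0.19, FDR 0.0903) and SREBF2 by -0.03 ± 0.14 and 0.41 ± 0.27 (difference -0.43 ± 0.13, FDR 0.0937). SREBF1 changed by -0.54 ± 0.65 and 0.59 ± 0.39 (difference -1.13 ± 0.32, FDR 0.0766). On day 0, SREBF1 was 0.55 higher in CEFT than in NC, at an FDR of 0.913. Of all genes, 1.31% had a smaller change in CEFT than in NC on day 3 at this FDR and 0.457% on day 14.

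The change of SCD on day 3 in CEFT and OXYT, the lowest groups of that day, did not pass once day 0 was taken into account, at -0.54 ± 0.19 (FDR 0.111) and -0.58 ± 0.19 (FDR 0.722). Among the treatments other than OXYT and TILD, whose tests over all days include the values of day 56, INSIG1 in CEFT was the 1 gene of the 8 with a timepoint by group interaction at an FDR of 0.05 (FDR 0.0294), where 4.67% of all genes passed. On day 56 the change from day 0 less the change in NC was -0.63 ± 0.19 for SCD in OXYT and -0.36 ± 0.19 in TILD, given as a description.

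**Figure D4:**
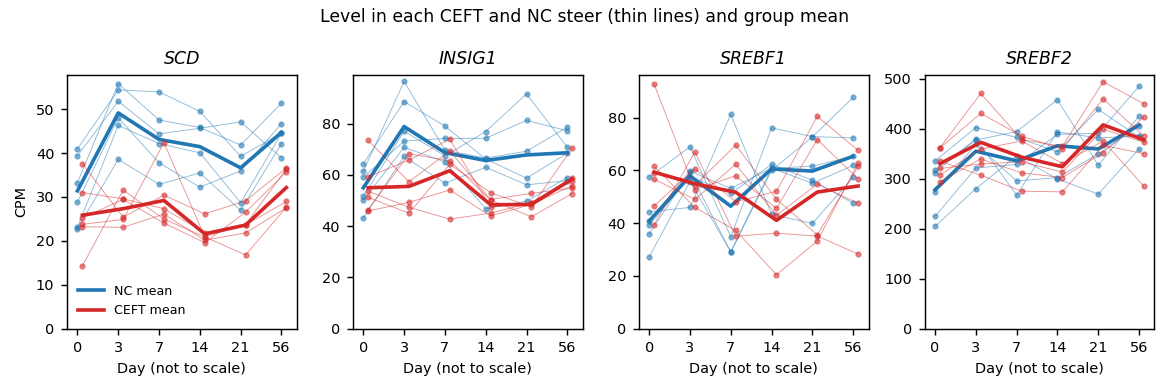
Level in CPM (vertical axis) of SCD, INSIG1, SREBF1 and SREBF2 on each day (horizontal axis, not to scale) in CEFT (red) and NC (blue), with a thin line for each of 6 steers and a thick line for the group mean. INSIG1 started at like means on day 0 (54.96 and 54.94 CPM) and stood at 55.5 CPM in CEFT and 78.9 CPM in NC on day 3.

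The lane of sequencing differed between most groups, and 2 treatments allow a look within a group. In TILD, SCD on day 14 averaged 23.2 CPM in the 4 steers on lane 2 and 25.7 CPM in the 2 on lane 3, and on day 56 it averaged 31.8 and 29.7 CPM. The gap was wider on day 0 (29.7 and 23.7 CPM) and on day 21 (22.2 and 27.4 CPM), in opposite directions. In FLOR on day 3 SCD averaged 35.4 CPM in the 2 steers on lane 1, the lane of NC, which stood at 23.8 and 46.9 CPM, and 34.8 CPM in the 4 on lane 2. On day 0 the averages in FLOR were 26.7 and 36.3 CPM, on day 14 38.5 and 32.6 CPM, and on day 56 37.5 and 30.7 CPM. No group was split over lanes 1 and 3. ENRO, which shared the lane of NC, had SCD at 37.6 ± 9.37 CPM on day 3 against 49.2 ± 6.33 CPM in NC (log2 fold change -0.39 ± 0.15, FDR 0.206).

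How the 8 genes varied together was described by the correlation of log2 CPM over 252 libraries after each steer's and each day's mean were subtracted. The libraries share steers, so they are not independent points. SCD, SQLE and INSIG1 formed one set, with r of 0.67 for SCD and SQLE, 0.60 for INSIG1 and SQLE and 0.51 for SCD and INSIG1. FASN, ACACA and SREBF2 formed another, with r of 0.77 for FASN and ACACA, 0.67 for FASN and SREBF2 and 0.67 for ACACA and SREBF2. SREBF1 was nearest to FASN (0.53). SCD was thus closer to the sterol gene SQLE than to FASN (0.38) or to the factor genes SREBF1 (0.31) and SREBF2 (0.23). HMGCS1 had r of at most 0.24 with any other of the 8.

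Among all genes tested, those most like SCD included SQLE (0.67), ACSL3 (0.63), CYP51A1 (0.615) and PDHA1 (0.57). Those most like SQLE were CYP51A1 (0.82), IDI1 (0.72) and MSMO1 (0.68), and those most like INSIG1 included CYP51A1 (0.68) and SQLE (0.60). For FASN they were KIF21B (0.82), SPTAN1 (0.81) and SEC16A (0.80), for ACACA they were FASN (0.77), SNRNP200 (0.74) and GBF1 (0.73), and for SREBF2 they included PRRC2A (0.84) and DCTN1 (0.82). For SREBF1 they were FASN (0.53), LRP5 (0.49) and ACACA (0.47). For HMGCS1 no gene exceeded FOCAD at 0.29.

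**Figure D5:**
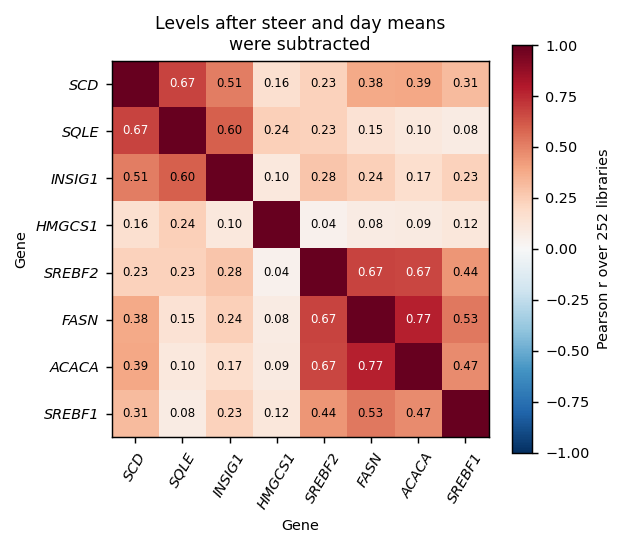
Pearson correlation (colour and number) between the levels of each pair of the 8 genes (both axes) over 252 libraries, after steer and day means were subtracted from log2 CPM. SCD, SQLE and INSIG1 form a block with r of 0.51 to 0.67, and SREBF2, FASN and ACACA a block with r of 0.67 to 0.77.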

How the data were processed

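Gene expression was measured by mRNA sequencing of whole blood in 252 libraries of 42 steers, 6 for each of 7 groups and 6 days. According to the submitters' notes and methods, the authors checked reads with FastQC 0.11.9, trimmed them with Trimmomatic 0.39, aligned them to the cattle assembly ARS-UCD1.3 with HISAT2 2.1.1 and assembled and quantified them with StringTie 2.2.0. The deposited values are estimated counts per gene, derived by StringTie's script from coverage at a read length of 150 and rounded up to whole numbers, without normalization. Coverage-based counts are not read tallies, so near-identical paralogs and overlapping genes may share reads, and the strand setting is not given in the sources used here. No column lacked a sample, and no pair of libraries was identical.

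A filter that asked for more than 0.2 CPM in 12 or more libraries left 19056 of 33282 genes, which were fitted with edgeR 4.0.16 in R 4.3.3 (quasi-likelihood F test, TMM scaling, Benjamini-Hochberg FDR over all genes tested). Days were compared with day 0 over all groups with steer as a block (FDR 0.05), treatments with NC on each day (FDR 0.1), and changes from day 0 with those of NC with steer as a block (FDR 0.1, and 0.05 for the timepoint by group interaction). The pairing of days comes from the steer named in the labels. Deviations from the group and day means correlated across days with a median r of 0.3 within a steer and -0.0731 between steers that shared a group, and every one of the 42 steers was above 0.1. Steers of different groups are not paired.

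Alternatives were scaling by RLE, no filter on low counts, limma 3.58.1 (voom), DESeq2 1.42.0, ComBat_seq by lane (sva 3.50.0) with the quasi-likelihood or likelihood ratio test, lane as a term, leaving out steers or groups, and edgeR's earlier quasi-likelihood fit, which was added after the data were seen. The fitting code was tested on simulated data.

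The 8 genes were taken by name, and they and the lists of pathway and marker genes were chosen with earlier results of these data known. Named beside the 8 genes were, of each pathway list, up to 5 genes with the largest absolute log2 fold change among those past the threshold, and for each of the 8 the 3 genes (for SCD 5) with the highest correlation of log2 CPM (prior count of 2). Some genes that this rule names are not reported here. Values from day 56 of OXYT and TILD against NC were not tested, since they chose SCD. Tests of SCD on day 56 in the other treatments, also of its change from day 0, used the same NC values. They are not independent of the choice. Steers are the replicates, each group of steers shared a pen, and p-values measure the spread between steers of a pen. Gene symbols were used as the table gives them, and sequences and coordinates were not used here.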

Additional observations from a re-analysis of the deposited data

Results flagged for a closer look

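Of 54 sets of 6 steers of a group, gene and day that were looked at, 6 held a steer far from the other 5, where chance marks about 1 in 20 sets. For SCD these were a CEFT steer at 42.4 CPM on day 7 (the others between 24.04 and 30.42 CPM), a TULA steer at 60.95 CPM on day 7 (the others between 30.83 and 40.99 CPM) and a CEFT steer at 26.13 CPM on day 14 (the others between 19.57 and 21.84 CPM). In TILD, a steer stood at 15.52 CPM on day 14 (the others between 24.54 and 27.21 CPM), and another at 31.91 CPM on day 21 (the others between 18.73 and 23.49 CPM). For ACACA, an NC steer stood at 36.81 CPM on day 3 (the others between 28.87 and 31.31 CPM). These are values of single steers, whose cause was not tested.

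The change from day 0 in CEFT differed from that in NC, by edgeR's test of the difference with steer as a block, for INSIG1 on day 3 (-0.507 on the log2 scale). On day 14 it differed for SCD (-0.653), SREBF1 (-1.13) and SREBF2 (-0.434). CEFT and NC were on different lanes and in different pens, which cannot be told apart from the treatment here.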

How the results depend on the processing

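No called value of the 8 genes changed direction under an alternative that was run. The 12 calls against NC became 34 by DESeq2 (12 of the 12 kept), 10 were kept with RLE scaling and 8 without the count filter or by edgeR's earlier quasi-likelihood fit, whereas 0 were left after ComBat_seq by lane, 0 with lane as a term and 1 after ComBat_seq with the likelihood ratio test (HMGCS1, TILD day 14). By comparison, the 3 genes called in CEFT on day 3, 3 in OXYT and 2 in TILD on day 3, 2 in CEFT and 2 in TILD on day 14 each became 0 under either lane adjustment by the quasi-likelihood test. DESeq2 called 5 in OXYT and 4 in TILD on day 3 and 4 in TILD on day 14. Without the count filter 1 was called in OXYT and 0 in TILD on day 3. TILD on day 3 had 1 with RLE scaling and 0 by the earlier fit, which gave 1 in TILD on day 14. Leaving out 1 steer gave 1 to 3 calls in CEFT and in OXYT on day 3, 0 to 3 in TILD on day 3, 1 to 3 in CEFT on day 14 and 0 to 3 in TILD on day 14.

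For the days, 3 of 8 genes were called on day 3 and 2 on day 7 in the NC steers alone, where fewer steers were fitted. On day 14 the count of 7 became 4 without the count filter, without the steer as replicate block, and without the NC, the ENRO or the TULA steers. Of the 4 changes from day 0 called in CEFT, 0 were called without the replicate block, and 1 gene of the interaction was called under each scaling and filter. In the CEFT, ENRO, FLOR and TULA steers alone, 29 of the 33 day calls were kept and 4 lost. The 33 count SCD on day 56 over all steers, which is described only, since values of that day chose the gene. The block kept the paired days of a steer together, and it changed 6 of the same 33 day calls.

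Among all genes, the calls of CEFT on day 3 numbered 2071, 3551 by DESeq2, 1068 without the filter and 0 with either lane adjustment by the quasi-likelihood test, and between 132 and 3836 without 1 steer (NC steer 12, CEFT steer 8). RLE scaling moved the median of all genes by less than 0.1 in these comparisons. Groups of 6 steers, 1 pen a group and lanes that differ between groups limit what can be told of treatments.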
